A study of Drosophila melanogaster with 2 samples.

Results

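Chameau (chm) belongs to the MYST enzymes, which acetylate histones, and the 830 peaks described here are those of a chameau-eGFP chromatin immunoprecipitation whose summit lay just upstream of a gene start on one strand. They were chosen from the conservative peak list, which holds peaks that passed a reproducibility threshold between the replicates. A summit had to lie within 500 bp of protein-coding transcript starts of one strand only, and at least 1 bp upstream of the nearest of them. The rule kept 830 of the 4195 conservative peaks on the 7 chromosome arms, or 19.8%, and they lay at 761 genes. In 1 of them, starts on either side of the summit were equally near, and it was counted as upstream. Of the other promoter peaks, 804 had the summit downstream of a start of one strand, 5 had it on the start itself and 520 were divergent, with starts of both strands in the window. The remaining 2036 peaks lay outside promoters.

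The material was whole Drosophila melanogaster embryos collected from 0 to 24 h, from transgenic flies that express chm-eGFP, and the precipitation used an antibody against GFP. The 2 samples were biological replicates of 1 group, so there was no other genotype, treatment or stage to compare. All tissues and stages of the collection were mixed, so a peak present in few cells and a weak peak in many cells cannot be told apart. The deposited lists give no read totals, so the depth behind each peak is unknown, and a possible control experiment named in the labels was not used here.

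As background, a core promoter is the stretch around a transcription start where RNA polymerase II is assembled. In flies, genes with a focused start often carry a TATA box or an initiator and are bound by GAGA factor (Trl), while housekeeping genes more often carry the DNA replication-related element (DRE), the Ohler motifs numbered 1, 5 and 7, or the sites of the boundary protein BEAF-32. The region just upstream of the start is usually free of nucleosomes in active genes. Fly genetics ties chameau to silencing by the Polycomb group and to the JNK pathway.

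The sequences under strong upstream summits show what these motifs look like in place. Each run is 121 bases of dm6 (RefSeq sequence, release 6), centred on the summit, written 5′ to 3′ in the direction of transcription, with 1 motif in capitals. The set holds, for each of 9 motifs, the strongest member in both replicate lists that carries it within 60 bp of the summit, 1 chromosome arm left aside, and was chosen after the values were seen. The capitals mark matches to the letters of, in order, GAGA (here on the opposite strand, as CTCTC), the DRE, a TATA box, an initiator (on the opposite strand, as ACTGA), Motif 5, Motif 7, Motif 1, a Myc E-box and a BEAF-32 core (on the opposite strand, as TATCG). Whether a match works as a site was not tested.
papi, chr2L:2221726-2221846, plus strand: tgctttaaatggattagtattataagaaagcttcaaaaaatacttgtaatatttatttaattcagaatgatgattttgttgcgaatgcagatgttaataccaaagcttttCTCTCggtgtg
eEF1gamma, chr3R:29220107-29220227, plus strand: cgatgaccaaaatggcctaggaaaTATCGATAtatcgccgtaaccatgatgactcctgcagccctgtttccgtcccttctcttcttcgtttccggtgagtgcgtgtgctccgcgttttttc
CG18549, chr3R:12449110-12449230, plus strand: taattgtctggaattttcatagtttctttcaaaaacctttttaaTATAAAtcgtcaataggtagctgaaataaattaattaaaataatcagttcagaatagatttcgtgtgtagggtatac
Ugalt, chrX:2703841-2703961, minus strand: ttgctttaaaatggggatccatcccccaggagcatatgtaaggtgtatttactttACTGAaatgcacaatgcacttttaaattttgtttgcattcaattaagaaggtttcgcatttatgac
CG42671, chr3L:11215222-11215342, plus strand: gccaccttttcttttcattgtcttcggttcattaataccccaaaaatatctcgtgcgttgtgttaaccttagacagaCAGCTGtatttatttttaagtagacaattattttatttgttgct
tin, chr3R:21378742-21378862, plus strand: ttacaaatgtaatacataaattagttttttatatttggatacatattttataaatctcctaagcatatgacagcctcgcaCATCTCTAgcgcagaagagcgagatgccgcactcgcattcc
eIF5B, chr3L:3460564-3460684, minus strand: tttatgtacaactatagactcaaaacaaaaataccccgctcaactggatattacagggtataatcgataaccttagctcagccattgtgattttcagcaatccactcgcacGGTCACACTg
RpL24, chr2L:13395076-13395196, minus strand: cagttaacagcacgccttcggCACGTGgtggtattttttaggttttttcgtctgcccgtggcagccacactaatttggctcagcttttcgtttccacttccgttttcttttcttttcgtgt
CG14100, chr3L:19590563-19590683, minus strand: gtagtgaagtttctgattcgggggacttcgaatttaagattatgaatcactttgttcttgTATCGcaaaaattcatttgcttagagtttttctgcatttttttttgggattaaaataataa

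The summit is base 61 of every run. In eEF1gamma and RpL24 the annotated start is base 66, 5 bases past the summit, in Ugalt it is base 110, and in eIF5B base 82. In the other runs the start lies beyond the end shown.

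Upstream summits lay close to the start and thinned out with distance. The median distance was 108 bp, with quartiles of 47 and 196 bp, and 627 of the 830 summits (75.5%) lay within 200 bp. From the start outward, the counts in successive 50 bp bins were 220, 167, 125, 115, 57, 40, 31, 24, 25 and 26. Downstream summits were drawn closer in, with a median of 61 bp, 329 of 804 (40.9%) in the first 50 bp against 26.5% of the upstream ones, and 35 against 115 at 151 to 200 bp. The window is part of the rule, so these distances are a description.

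**Figure D1:**
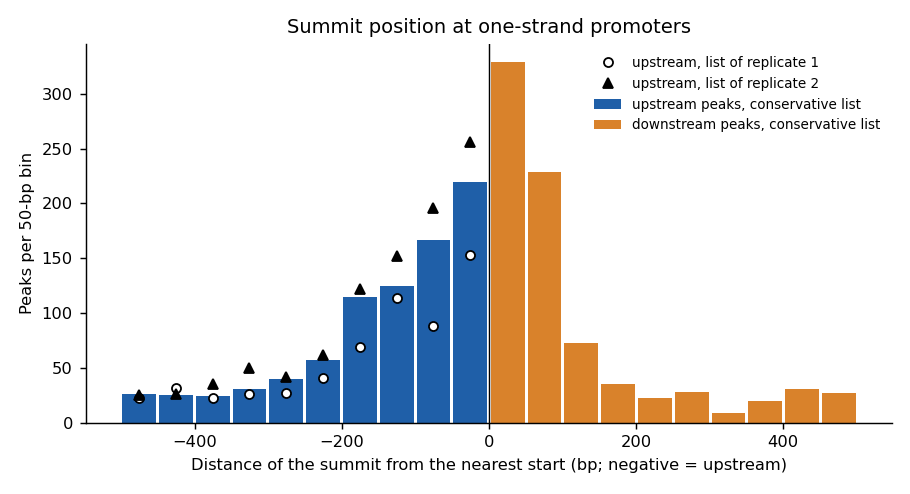
Number of summits (vertical axis) in 50-bp bins of distance from the nearest start (horizontal axis, bp, negative is upstream) at one-strand promoters. Blue bars are the 830 upstream and orange bars the 804 downstream peaks of the conservative list, circles and triangles the upstream peaks in the lists of replicates 1 and 2; the upstream side falls from 220 to 26 peaks a bin, with a shoulder out to 200 bp.

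Upstream and downstream summits were about equally common in the conservative list. The upstream share was 50.6% of 1639 one-strand promoter peaks (95% Wilson interval 48.2 to 53.1), while upstream bases made up 45.2% of the bases where such a summit could fall. Set against an even split, the replicates went different ways. The list of replicate 1 had 596 upstream and 634 downstream peaks, a share of 48.3% (45.6 to 51.1), and that of replicate 2 had 966 and 811, a share of 54.3% (52.0 to 56.6). The mean of both was 51.3% ± 4.22 (SD, n = 2), so neither side was the more common one beyond the spread between replicates. Both replicate shares, like that of the conservative list, lay above the 45.2% of bases, a difference that was not tested. The median upstream distance was 123 bp in replicate 1 and 111.5 bp in replicate 2.

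The column the authors deposited as signal is the peak's own strength, on a scale that is not stated. Upstream peaks had a median signal of 98.1, with quartiles of 76.4 and 155. Downstream peaks had a median of 97.7 and an upper quartile of 133, divergent peaks 105 and 156, and peaks outside promoters 89.7 and 127. The upstream and downstream medians were thus nearly the same, while the upper quartile of the upstream peaks was higher. Within the replicates' own lists, the upstream median was 61.9 against 56.7 downstream in replicate 1, and 52.4 against 52.2 in replicate 2. No test was made of these medians, since peaks are not replicates.

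The strongest members lay farther from the start than most. Of the 100 strongest conservative peaks, 33 were upstream, 4 were downstream and 23 were divergent. The median distance of these 33 was 136 bp, against 107 bp for the other members, and only Ugalt lay within 50 bp while 18 lay at 101 to 200 bp. By distance, the median signal was 91.7 at 1 to 50 bp, 92.2 at 51 to 100 bp, 109 at 101 to 200 bp and 102 beyond. Peaks in the list had a common width of 336 bp in 709 members, whose median signal was 90.7. The other 121 were narrower and had a median of 321.

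Among the 25 strongest members present in both replicate lists, every replicate signal lay between 184 and 744, and 13 of the 25 were higher in replicate 1. The strongest lay 49 bp upstream of Ugalt on the X chromosome (dm6 chrX:2703763-2704034), which encodes a UDP-galactose transporter. Its signal was 651 in replicate 1 and 716 in replicate 2 (683 ± 46.5, SD, n = 2). The next, 99 bp upstream of CG14100 (chr3L:19590479-19590758), had 744 and 613 (678 ± 92.6, SD, n = 2). Both summits lay between genes, and the replicates put them in opposite order. At px, known for its part in wing vein patterning, the signals were 730 and 349 (chr2R:22514163-22514438, 204 bp upstream, in an intron of a longer px transcript). At CG1888 they were 653 and 414, 225 bp upstream and inside the 5' UTR of another of its transcripts. At CG18549 they were 498 and 551, 126 bp upstream. The TATAAA match shown above for it begins at base 45, farther from the start than the summit. The px peak was about as high as CG14100 in replicate 1 and well below it in replicate 2, so its rank rests on replicate 1.

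A Polycomb group gene was among them. The summit 497 bp upstream of the nearest start of ph-p (chrX:2137215-2137483), which encodes polyhomeotic-proximal, a subunit of Polycomb repressive complex 1, lay in an intron of a longer ph-p transcript. Its signal was 610 in replicate 1 and 383 in replicate 2 (497 ± 160, SD, n = 2). It sits at the edge of the 500 bp window, so a narrower window does not count it as a promoter peak. The replicates also differed at Dll, which encodes the homeodomain factor that specifies limbs. There the signal was 201 in replicate 1 and 459 in replicate 2, 79 bp upstream of the start (chr2R:24814600-24814880). Of the 25, px and Dll differed more than 2-fold between replicates, and in opposite directions.

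PNPase, the polynucleotide phosphorylase of mitochondria, had 427 and 546 in replicates 1 and 2, 84 bp upstream (chr3R:31404543-31404775). The gene of the mitochondrial ribosomal protein mRpL41 had 404 and 469, 131 bp upstream, and that of the pseudouridine synthase RluA-1 had 386 and 398, 176 bp upstream. In eIF6, which encodes a factor for the large ribosomal subunit, the values were 284 and 353. PAN3, a subunit of a poly(A) nuclease, closed the 25 with 229 and 207. In all but PAN3 of these 5 the value was higher in replicate 2.

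Of the others of the 25, Fkbp14, a prolyl isomerase of the endoplasmic reticulum, had 385 and 329, 104 bp upstream. Rtnl1, which encodes a reticulon that shapes the endoplasmic reticulum, had 345 and 324, 274 bp upstream of the nearest of its starts. TRAM, a translocon-associated protein, had 339 and 314. These 3 were a little higher in replicate 1. The transporter gene MFS10 had 363 and 332, with the summit in the 3' UTR of CG15717. At moody, a G protein-coupled receptor gene of the blood-brain barrier, the values were 314 and 316, in an intron of CG4313. Alg3, a mannosyltransferase of N-glycan assembly, had 251 and 261. For moody and Alg3 the replicates were nearly level.

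The HMG-box gene Sox14 had 255 and 218, 246 bp upstream, and the T-box gene org-1 had 278 and 184, 369 bp upstream. The casein kinase gene gish had 326 and 309. These 3 were higher in replicate 1. Tina-1 had 286 and 325, CG1142 had 295 and 309, and CG1635 had 251 and 313, all higher in replicate 2. CG13921 had 350 and 187, higher in replicate 1. Of the 25 summits, 11 lay between genes, 8 inside a longer transcript of the same gene, 4 inside another coding gene and 2 under an antisense RNA gene only.

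**Figure D2:**
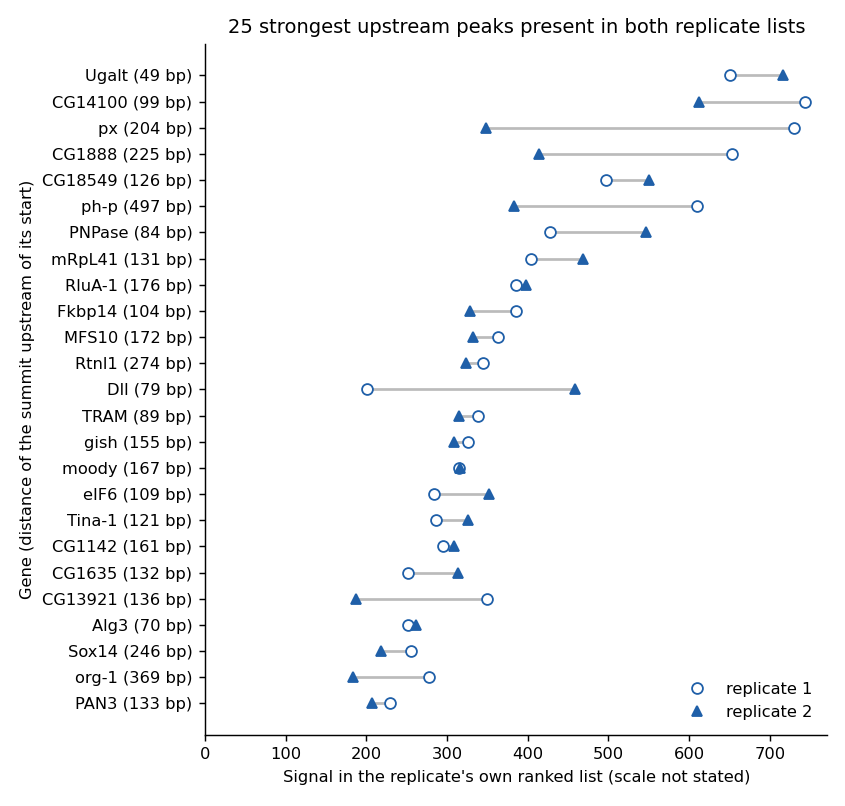
Signal in each replicate's own ranked list (horizontal axis, scale not stated) for the 25 strongest upstream peaks found in both replicate lists, by gene, with the distance of the summit upstream of the start. Circles are replicate 1, triangles replicate 2 and lines join them; px and Dll have the 2 widest gaps in relative terms.

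Over the whole set, the replicates agreed in order but not closely. A ranked peak of each replicate covered the summit in 770 of the 830 members. Across these peaks Spearman's rho was 0.66 and Pearson's r of the log2 signals was 0.81, as a description of peaks that share 2 libraries. Replicate 1 was higher in 389 and replicate 2 in 381, with a median log2 ratio of 0.01 and quartiles of -0.36 and 0.33. The difference passed 2-fold in 23 members with replicate 1 higher and in 21 with replicate 2 higher. Over all 3833 conservative peaks covered by both replicates the median log2 ratio was 0.11, and taken from that median the counts were 10 and 38. The conservative signal was close to the sum of the replicates' signals, with a median ratio of 0.991 and quartiles of 0.939 and 1.03.

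Presence in the replicates' own lists past the threshold was uneven. The summit lay in a peak of both replicate lists in 435 of 830 members (52.4%, 95% Wilson interval 49.0 to 55.8), against 45.8% of all conservative peaks. It was 47.8% of downstream peaks and 57.9% of divergent peaks, and neither difference passed the test (adjusted p = 0.163 and 0.140, two-sided Fisher's exact test with Benjamini-Hochberg adjustment over 31 tests between peak classes). Replicate 1 alone held 88 members, replicate 2 alone held 165, and 142 were in neither list. Presence followed strength, from 10 of 208 members (4.81%) in the lowest 25% by signal to 206 of 208 (99.0%) in the highest 25%. The conservative signal was close to the sum of the replicates' signals, so this trend is a description and no independent result. The strongest member missing from a list was at Atf3, a bZIP factor gene, with a conservative signal of 233 and a peak in the list of replicate 1 only. At the other end, 18 members had a conservative signal under 20. A ranked peak of a replicate covered 11 of these summits, and in all 11 its signal was above the conservative one. In 7 of the 11 the replicate's peak also covered another conservative summit, so its signal is not that of the member alone.

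**Figure D3:**
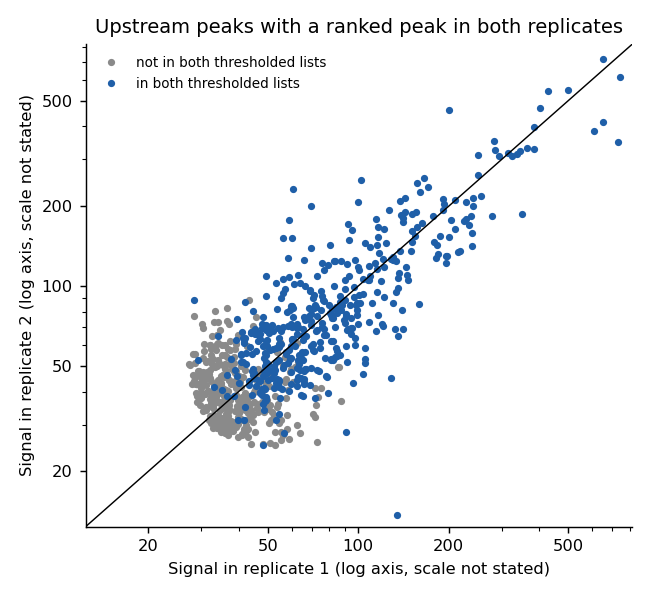
Signal in replicate 1 (horizontal) against replicate 2 (vertical), both on log axes and on a scale that is not stated, for the 770 upstream peaks with a ranked peak of each replicate at the summit. Blue points are in both lists past the threshold, grey points are not, and the line marks equal signal; points scatter to both sides of it, 389 below and 381 above.

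What lay under the summit besides the promoter varied. No gene covered 426 of the 830 summits (51.3%). Another 291 (35.1%) lay only inside a longer transcript of the same gene, 89 (10.7%) inside another coding gene and 24 (2.89%) inside a non-coding gene only. Within the same gene, introns held 260 of 326 summits, 5' UTRs 62 and coding exons 4. Within another coding gene, introns held 70 of 89 and 3' UTRs 16. The share inside another coding gene was 8.08% for downstream peaks, and the difference did not pass the test (adjusted p = 0.167, same Fisher's exact test). The median signal was 102 between genes, 94.5 inside the same gene and 92.0 inside another coding gene.

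One-strand here refers to coding genes. A non-coding gene started on the opposite strand within the window in 45 members (5.42%). Among the 450 members that no coding gene covered, the next coding gene upstream was on the same strand in 280 (62.2%) and on the opposite strand in 170, and the median gap from the start to that gene was 918.5 bp. The arms held shares near those of eligible genes: X 16.7% against 16.2%, 2L 18.4% against 18.5%, 2R 23.5% against 21.0%, 3L 19.9% against 19.5%, 3R 21.1% against 23.9%, and 3 peaks on 4.

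Several members could fall at 1 gene. There were 61 genes with more than 1 upstream peak, and Rtnl1 had the most, with 5, at 7 to 327 bp from their starts and with conservative signals of 77.2 to 667. PAN3, Ptpmeg2, ush, bun and larp had 3 each, named here because of that count. Of the 761 genes, 128 (16.8%) also had a downstream one-strand peak. Upstream peaks were more frequent at genes with many starts: 452 of 3699 genes with more than 1 coding start had one (12.2%), against 309 of 10269 with 1 start (3.01%). A gene with more starts has more bases in which a summit counts, and that share was not adjusted for.

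Windows reaching 100 bp to each side of the summit (201 bp in all) were scanned on both strands for 14 short motifs. GAGA was searched as the letters GAGAG and the TATA box as TATAAA. The initiator was searched as TCAGT, the DRE as TATCGATA, and the core of the BEAF-32 site as CGATA. The Ohler motifs were Motif 1 with the letters GGTCACACT, Motif 5 with CAGCTG and Motif 7 with CATCNCTA. The sites of single factors were those of Zelda, searched as CAGGTAG, of Pho as GCCATTTT, of AP-1 as TGANTCA, of CREB (CRE) with the letters TGACGTCA, of Myc (the E-box) with CACGTG and of Grainyhead with AACCGGTT. Every DRE contains a BEAF-32 core, so those counts overlap. Shares were compared with those of downstream and divergent peaks by the same two-sided Fisher's exact tests, which count peaks and cover counting error only. A reference of 11813 windows of that length, centred 108 bp upstream of one-strand starts with no summit nearby, was set beside them with no test. The share in all 13372 such windows, with or without a peak, was also counted. These windows stop short of the start they were placed by, while those of upstream summits within 100 bp reach theirs. Median GC content was 41.8% in upstream, 47.8% in downstream, 39.3% in divergent and 39.3% in reference windows, and its part in the motif shares was not tested.

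GAGA was the most frequent motif at upstream summits and was more frequent there than at divergent ones. It was in 335 of 830 windows (40.4%, 95% Wilson interval 37.1 to 43.7), against 34.1% of downstream, 19.4% of divergent and 26.5% of reference windows, and 28.6% of all promoter windows. Peaks outside promoters had it in 33.1% and all conservative peaks in 33.1%. The divergent share was thus the lowest of those named. The difference from divergent peaks was 20.9 percentage points (adjusted p = 1.31e-14, Fisher's exact test), and it was 15.7 points in the list of replicate 1 and 24.7 in that of replicate 2. The difference from downstream peaks was 6.28 points (adjusted p = 0.0316, Fisher's exact test), but it was present in only 1 of the 2 replicate lists. In the list of replicate 1 the shares were 34.6% upstream and 35.3% downstream, and in replicate 2 they were 45.9% and 37.1%.

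The replicates also differed in which GAGA-bearing members they held. GAGA was in 98 of the 165 members found in the list of replicate 2 alone (59.4%, Wilson interval 51.8 to 66.6). It was in 30 of 88 found in replicate 1 alone (34.1%, 25.04 to 44.5) and in 151 of 435 found in both (34.7%, 30.4 to 39.3). Members with GAGA had a median signal of 93.5 and 45.1% of them were in both lists, while members without it had 102 and 57.4%. The GAGA match nearest the summit was a median of 44 bp from it.

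The TATA box was more frequent at upstream than at downstream summits when upstream summits at all distances were counted. It was in 197 upstream windows (23.7%, 21.0 to 26.7), in 15.2% of downstream and 30.2% of divergent windows. The upstream share was 8.56 points above the downstream one (adjusted p = 9.67e-05, Fisher's exact test), 7.60 points in replicate 1 and 9.15 in replicate 2. It was 6.46 points below the divergent one (adjusted p = 0.0316, Fisher's exact test), a call that was lost in the list of replicate 1, where the shares were 24.2% and 28.0% (adjusted p = 0.405, exact test). The share in reference windows was 33.8%, above that of upstream peaks, and 32.9% over all promoter windows. The match nearest the summit was at a median of -161.5 bp from the start, farther out than a working TATA box lies, and 47.7% of the nearest matches were in the direction of transcription. Members with it had a median signal of 120 against 93.5 without it. By distance, the TATA box was in 13.6% of upstream windows at 1 to 50 bp, below the downstream share. It was in 23.4% at 51 to 100 bp, 31.3% at 101 to 200 bp and 26.1% at 201 to 500 bp. The part of distance in the difference from downstream peaks was not tested.

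The initiator was in 303 upstream windows (36.5%), against 44.8% of downstream windows, a difference of -8.27 points (adjusted p = 0.00379, Fisher's exact test). It was 31.5% in divergent windows (adjusted p = 0.163, same exact test), 33.6% in reference windows and 33.2% over all promoter windows. In the replicates' lists the difference from downstream peaks was -6.63 and -4.52 points, the same direction as in the conservative list, but neither list alone passed the test (adjusted p = 0.0617 and 0.130, exact test). The difference from divergent peaks passed in the list of replicate 2 alone (38.5% against 31.3%, adjusted p = 0.0273, exact test). By distance, the initiator was in 42.3% of upstream windows at 1 to 50 bp and 40.7% at 51 to 100 bp. It was in 34.2% at 101 to 200 bp and 29.6% at 201 to 500 bp. From 101 bp outward the window does not reach the start, so an initiator at the start is not counted. Downstream summits lay nearer, at a median of 61 bp, and the part of distance in the difference was not tested.

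Motifs of housekeeping promoters were rarer at upstream than at divergent summits when upstream summits at all distances were counted. The DRE was in 35 upstream windows (4.22%, 3.05 to 5.81) and in 12.9% of divergent windows (adjusted p = 9.92e-08, Fisher's exact test), and the difference was -7.10 points in replicate 1 and -7.71 in replicate 2. The BEAF-32 core was in 251 (30.2%) against 46.5% (adjusted p = 3.06e-08, same exact test). Motif 7 was in 38 (4.58%) against 11.3% (adjusted p = 3.3e-05, same exact test), and Motif 5 in 122 (14.7%) against 21.0% (adjusted p = 0.0165, same exact test). These 4 were each lower upstream than divergent in both replicate lists, although in replicate 2 the calls for Motif 7 and Motif 5 were lost (adjusted p = 0.0638 and 0.0504, exact test). Motif 1 was in 27 (3.25%) against 5.19%, and did not pass the test (adjusted p = 0.180, same exact test), while it passed in the list of replicate 2 alone (3.31% against 6.97%, adjusted p = 0.00978, exact test). Against downstream windows, the DRE was higher upstream, 4.22% against 1.99% (adjusted p = 0.0318, same exact test). That call was lost in the list of replicate 2 (4.24% against 2.71%, adjusted p = 0.194, exact test). The BEAF-32 core was at 31.0% downstream (adjusted p = 0.843, same exact test). The DRE was in 9.09% of upstream windows at 1 to 50 bp and 5.99% at 51 to 100 bp. It was in 1.25% at 101 to 200 bp and 0.985% at 201 to 500 bp. The BEAF-32 core was in 44.1%, 33.5%, 23.8% and 20.2% in the same order. At 1 to 50 bp the core was thus near its divergent share, while the DRE, Motif 7 (6.82%) and Motif 5 (17.3%) were below theirs. Divergent summits have starts of both strands within 500 bp, so their windows can cover starts of both strands. The part of this, and that of distance, in the differences from divergent peaks was not tested.

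Set beside promoters without a peak, Motif 1 (3.25% against 0.948%), Motif 7 (4.58% against 1.74%) and Motif 5 (14.7% against 9.90%) were more frequent at upstream summits, with Wilson intervals that do not overlap. The DRE (4.22% against 3.50%) and the BEAF-32 core (30.2% against 30.4%) had overlapping intervals. Over all promoter windows these shares were 1.18%, 1.86%, 10.4%, 3.64% and 30.6% in the order named. Unlike windows of the nearest upstream summits, reference windows do not reach the start. At 101 to 200 bp, Motifs 1, 7 and 5 were in 2.92%, 2.08% and 12.5% of upstream windows. At 201 to 500 bp they were in 0.493%, 3.94% and 10.8%. The part of position in the differences from reference windows was not tested. At least 1 of the DRE and Motifs 1, 5 and 7 was in 195 upstream windows (23.5%), in 41.5% of divergent and 15.2% of reference windows, and 65 upstream windows held 1 of these together with GAGA. None of the 14 motifs was in 94 upstream windows (11.3%).

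The other motifs were in few windows, and no upstream share of theirs differed from the downstream or divergent one at an adjusted p under 0.05 (Fisher's exact test). AP-1, the site of the JNK-regulated Fos and Jun factors, was in 36 members (4.34%) and in 4.39% of reference windows. The Myc E-box was in 25 (3.01%), Pho in 13 (1.57%), Zelda in 4 (0.482%), Grainyhead in 4 and CRE in 3. Of all promoter windows, 4.34% held AP-1, 2.16% the Myc E-box, 1.69% Pho, 1.38% Zelda, 0.568% Grainyhead and 0.389% CRE. In all, 10 of the 31 tests passed, 3 motifs being higher and 1 lower upstream than downstream, and 1 higher and 5 lower than at divergent peaks.

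**Figure D4:**
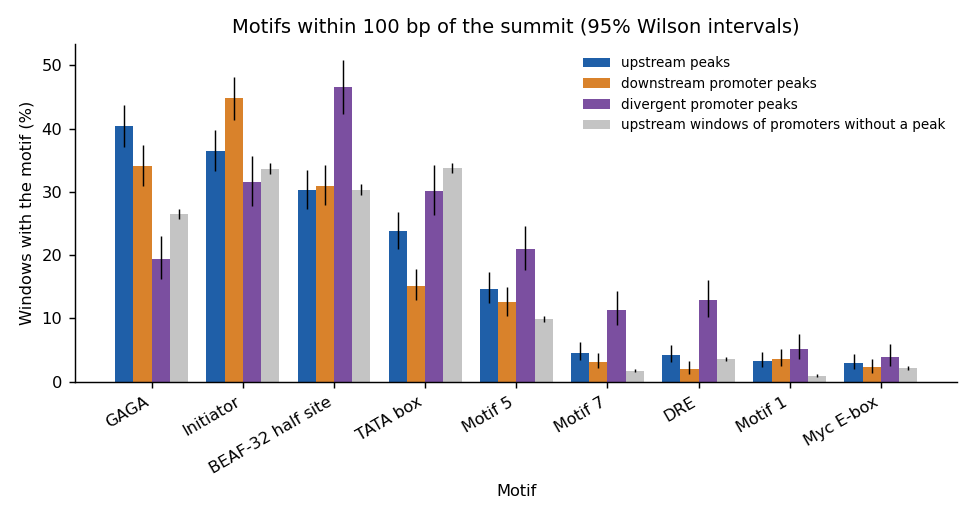
Share of 201-bp windows with each of 9 motifs (vertical axis, %) at upstream peaks (blue, 830), downstream peaks (orange, 804), divergent promoter peaks (purple, 520) and promoter windows without a peak (grey, 11813), with 95% Wilson intervals as bars. GAGA is at 40.4% upstream and 19.4% at divergent peaks, and the DRE at 4.22% and 12.9%.

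An upstream peak was present at 761 of the 13968 protein-coding genes, or 5.45%, and gene groups were read beside that share. The lists were counted without a test. The genes differ in their number of starts, and 62.5% of the Hox and 66.7% of the JNK genes had more than 1, against 48.4% of the ribosomal protein genes and 8.55% of the cuticle genes.

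Cytosolic ribosomal protein genes, which encode the subunits of the ribosome, had an upstream peak in 20 of 93 (21.5%, 95% Wilson interval 14.4 to 30.9). Counted with overlap, 18 of the 93 had a downstream one-strand peak and 28 a divergent one, beside 5.21% and 7.31% of all protein-coding genes. The strongest were at RpL23A, RpL24 and RpS28b. RpL23A had a signal of 196 in replicate 1 and 129 in replicate 2 (162 ± 47.0, SD, n = 2). RpL24, shown above with its Myc E-box, had 156 and 168 (162 ± 7.93, SD, n = 2). RpS28b had 196 and 122 (159 ± 52.6, SD, n = 2). These 3 had nearly the same mean and differed in how close the replicates were. The median distance at the 20 genes was 19.5 bp and the median conservative signal 190, against 106 bp and 101 over the strongest peak of each of the 761 genes. The DRE was in 5 of the 20 windows, the Myc E-box in 5, the BEAF-32 core in 15 and GAGA in 3, beside 4.22%, 3.01%, 30.2% and 40.4% of all members. Among the 220 members at 1 to 50 bp, these shares were 9.09%, 4.09%, 44.1% and 40.5%.

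Translation factors had a peak in 6 of 53 (11.3%). The strongest after eIF6 was eEF1gamma, an elongation factor subunit, with 210 and 164 (187 ± 32.3, SD, n = 2) at 5 bp and with the DRE shown above. Next came eIF5B, the factor that joins the subunits, with 49.7 and 59.5. The mitochondrial ribosomal protein genes had 2 of 73 (2.74%), mRpL41 and mRpL4, and 12 had a divergent peak. Only 20 of the 73 had upstream bases where a one-strand peak could fall, and the 2 genes are among these, beside 7.03% of the 10831 such genes overall. Oxidative phosphorylation genes had 1 of 84 (49 with such bases), at ND-B17 of complex I, with 59.9 and 42.8, and 10 divergent ones. There was no upstream peak at the 48 proteasome, 37 DNA replication, 33 aminoacyl-tRNA synthetase or 29 core spliceosome genes. By a limit of 3 counts, these zeros allow shares of up to 6.25%, 8.11%, 9.09% and 10.3%, which for all 4 lists includes the 5.45% of all genes. Genes with such bases numbered 29, 22, 14 and 11 in these lists, and over them the limits are 10.3%, 13.6%, 21.4% and 27.3%.

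Regulators of development were counted in several lists. Hox genes, which set segment identity, had 4 of 8 (Wilson interval 21.5 to 78.5%). At pb the signal was 27.5 in replicate 1 and 50.5 in replicate 2, at Abd-B it was 49.0 and 36.7, and at lab 44.5 and 32.5. Only Abd-B was in both replicate lists. The fourth, Ubx, named after its value was seen, had a conservative signal of 9.37 and no ranked peak of either replicate at the summit. All 4 were below the median signal of the upstream peaks. Segmentation genes had 3 of 20, at bcd, the anterior morphogen (85.3 and 49.3), at cad (42.4 and 50.9) and at wg, the Wnt ligand (37.0 and 29.0). Of these, only cad was in both replicate lists.

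The JNK pathway and dorsal closure list, which covers the signal that closes the embryonic epidermis, had 8 of 24 (33.3%, 18.0 to 53.3). The strongest was at ush, a GATA cofactor, with 53.0 and 102 (77.7 ± 34.9, SD, n = 2). The myosin VI gene jar had 92.6 and 69.0, and bsk, the JNK itself, had 81.4 and 52.4 at 85 bp. These 3 were in both replicate lists, with ush higher in replicate 2 and the other 2 higher in replicate 1. The peaks at Shark and aop were in both lists too, while those at kay, egr and msn were not. At msn the conservative signal was 14.0, with a ranked peak only in replicate 2. A downstream peak was present at 9 genes of the list, 3 of which also had an upstream one.

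Chromatin regulators had small counts. The Polycomb group had 4 of 19 (21.1%), with ph-p above, jing at 40.7 and 49.8, and Psc, another subunit of the repressive complex, at 45.1 and 47.2. The fourth, ph-d, had a conservative signal of 12.4 and a ranked peak only in replicate 2. Of these 4, ph-p and Psc were in both replicate lists, and jing and ph-d were not. The trithorax group had 3 of 16 (18.8%), at Trl, the GAGA factor gene (a ranked peak only in replicate 2, 55.7), at fs(1)h (36.2 and 32.8) and at kis (41.3 and 36.4). None of these 3 peaks was in both replicate lists. In the MYST acetyltransferase list, 2 of 17 had a peak. At chm itself, 49 bp upstream, it was 61.6 in replicate 1 and 49.4 in replicate 2 (55.5 ± 8.65, SD, n = 2) and was not in both lists. The flies carry a chm-eGFP transgene, and its part in the value at chm was not tested. At E(Pc), a subunit of the Tip60 complex, the values were 49.97 and 48.3. The insulator and interband list had 2 of 14, at BEAF-32 (44.1 and 55.4) and JIL-1, a histone kinase gene (47.2 and 43.8).

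Signalling, stress and cell cycle genes followed. The Notch list had 4 of 23, led by the corepressor gene gro with 156 and 191 (174 ± 24.7, SD, n = 2), then numb with 78.5 and 45.2. Heat shock genes had 6 of 26 (23.1%). Hsp83 had 191 and 213, Hsp27 had 201 and 154, and Hsp26 had 100 and 115, and all 3 were in both lists. The cell cycle list had 4 of 34, at BubR1 of the spindle checkpoint (44.1 and 67.3), at Dp, the E2F partner (51.7 and 71.1), and at CycB (49.0 and 55.9) and CycE. The first 3 of these were all higher in replicate 2.

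Tissue genes completed the lists. Muscle genes had 2 of 13, at sls, the titin-like gene (122 and 90.7), and Tm1, a tropomyosin gene (36.4 and 47.3). Of 15 neuronal genes only elav, an RNA-binding protein gene used as a neuron marker, had one, with 151 and 147 (149 ± 3.09, SD, n = 2), 255 bp upstream. Chemosensory receptor and odorant-binding protein genes had 1 of 230 (0.435%, 0.0768 to 2.42), at Obp99b. Cuticle protein genes had 0 of 117, which allows a share of up to 2.56% (2.63% of the 114 with eligible upstream bases), and gut serine protease genes 0 of 31, which allows up to 9.68%. The upper limits for the chemosensory and cuticle lists lie below 5.45%. Few of these genes had more than 1 start (9.13% and 8.55%), and 3.01% of all genes with 1 start had an upstream peak. The chemosensory limit of 2.42% lies below that share too. For the cuticle genes the limits of 2.56% and, by the Wilson interval, 3.18% lie on either side of it. The part of the number of starts was not tested.

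**Figure D5:**
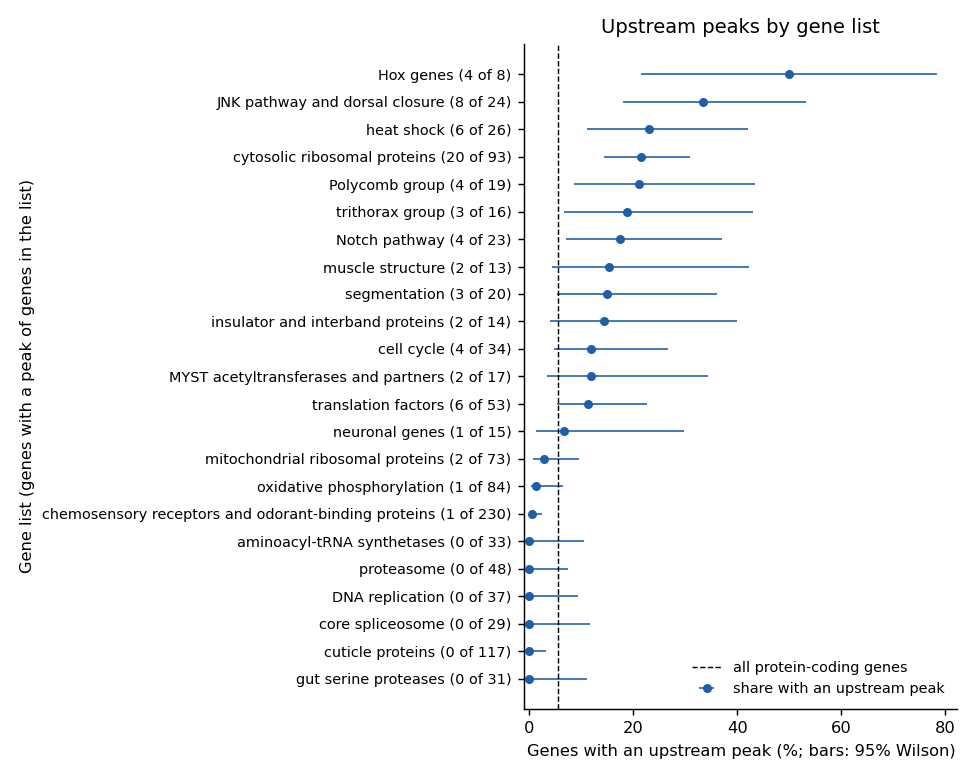
Share of genes with an upstream one-strand promoter peak (horizontal axis, %) in each of the 23 gene lists, with the number of genes in brackets and 95% Wilson intervals as bars. The dashed line is the 5.45% of all protein-coding genes; the points run from 4 of 8 Hox genes to 0 in 6 lists.

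At the edge of the window, the farthest summits inside lay 499 bp upstream of CG17896 (signal 293) and 497 bp upstream of CG42671 (282), the latter tied with ph-p. The nearest outside lay 503 bp from CG34007 (93.2) and 507 bp from Sqor (84.3). At the start itself, 5 summits lay 1 bp upstream, at RpL11 (signal 224), ush (132), crol (102), Rtf1 (79.3) and esg (69.4).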

How the data were processed

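Peak lists of anti-GFP ChIP-seq from 2 biological replicates were used. Per the labels, chromatin was sonicated and positions refer to dm6. Neither aligner nor peak caller is named in the sources used here. The authors deposited a signal per peak, with no stated scale, and a summit offset. Lists were called per sample and on both samples together. Depth is unknown.

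Summits on 7 arms (X, 2L, 2R, 3L, 3R, 4, Y) were placed on Ensembl release 115 gene models (BDGP6.54) with pandas 2.3.3. A replicate's signal at a member is that of the strongest peak in its own ranked list that holds the summit; scales may differ between replicates, which the SD then includes. With 2 replicates, an SD describes these samples. Named genes are those of the 25 strongest members in both replicate lists, up to 3 per gene list, and the edge peaks. Others, named in the text, were chosen after their values were seen. Fisher's exact tests (scipy 1.17.1) formed 1 family of 31 with Benjamini-Hochberg adjustment at 0.05. Wilson intervals and zero limits cover counting error only. Of 195 listed symbols 182 matched; the rest of the list entries were name patterns. Class assignment and motif search were tested on simulated data. Members, motifs and lists were chosen with earlier results of these data known. Alternatives were other lists, stronger peaks, windows of 250 and 1000 bp, midpoints, other starts, other overlap rules and motif windows of 50 and 200 bp each side.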

Additional observations from a re-analysis of the deposited data

How the results depend on the processing

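Of 63 values other than motif shares recomputed under the alternatives, 47 stayed within the replicate spread or on the same side of the threshold. In the lists of replicate 1 and of replicate 2 alone, the number of upstream peaks was 596 and 966, the median distance 123 and 111.5 bp, and the median signal 61.9 and 52.4, each list having its own signal level. The median signal was 85.1 in the pooled list. With the stronger 50% of peaks there were 443 members, at a median distance of 123 bp and a median signal of 147. The median distance was 81 bp with a 250 bp window and 157 bp with a 1000 bp window, as the window sets its range. With 1 start per gene there were 543 members and the upstream share was 44.9%. The share in both replicate lists was below that of divergent peaks, past the threshold, in the pooled list (39.0%, adjusted p = 0.00481, Fisher's exact test) and with a 250 bp window (52.7%, adjusted p = 0.0053, exact test). With a 1000 bp window it passed against downstream peaks (50.9%, adjusted p = 0.0432, exact test). The share inside another coding gene passed with a 1000 bp window (11.9%, adjusted p = 0.0394, exact test) and with 1 start per gene (17.1%, adjusted p = 0.00109, exact test). The cause of these changes was not tested.

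Each motif result was recomputed under 11 alternatives. Lower BEAF-32 and DRE shares and a higher GAGA share than at divergent peaks, and a higher TATA box share than downstream, kept their call in all 11. The call was lost in 7 for GAGA against downstream and for the TATA box against divergent, in 5 for Motif 5, in 4 for the DRE and the initiator against downstream, and in 2 for Motif 7. A call was gained in 9 cases, 4 for Motif 1 against divergent (adjusted p from 0.000479 to 0.0308, exact test), 3 for the initiator against divergent (0.00751 to 0.0463), 1 for Motif 5 against downstream in the list of replicate 2 (0.0413) and 1 for AP-1 against divergent with 1 start per gene (0.0282). GAGA against downstream reversed in the list of replicate 1 (34.6% against 35.3%, adjusted p = 1, exact test), and was 45.9% upstream in that of replicate 2. Its adjusted p ran from 0.00105 to 1 over all alternatives (exact test). The BEAF-32 core within 50 bp reversed against downstream (19.0% against 14.1%, adjusted p = 0.0299, exact test). No paired analysis was possible because there was 1 group.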
